A study of Rattus norvegicus with 9 samples.

Results

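The MRAK probes are the non-control probes of a one-colour rat array whose systematic name starts with the letters MRAK. They were chosen by this name alone, and no measured value entered the choice. There are 3588 of them among the 24684 probes of the array, or 14.5%, and each is printed in 3 spots. They are treated here as probes for noncoding transcripts, and they make up 38.3% of the 9361 probes whose names do not start with NM_ or XM_, the RefSeq prefixes of coding transcripts. The columns used here give a probe's name but no transcript, strand or genome position for an MRAK name, and no probe sequence, so no gene or role is given to any single probe and a neighbouring or overlapping coding gene cannot be named.

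Kidney RNA was measured in 9 male rats aged 53 days, on 1 array each. The groups were 3 Dahl Salt Sensitive rats (Dahl S), 3 spontaneously hypertensive rats (SHR) and 3 Dahl Salt Resistant rats (Dahl R), with no other treatment between them. All had been weaned at 30 days and then fed a diet with 0.3% salt, the Dahl S rats included, so no group had a salt load. The labels do not say whether the animals came from separate litters, and p-values measure the spread between these samples, which may be partly technical.

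Long noncoding RNAs are transcripts that are not translated into protein. As a class they are known to be less abundant than messenger RNAs and often restricted to particular tissues or cell types, and some act in the nucleus on chromatin or on transcription of nearby genes. In Dahl S rats a salty diet brings on hypertension, which Dahl R rats, a line of common origin, resist. SHR become hypertensive without added salt. The design asks which noncoding transcripts the kidneys of these strains express, and whether the strains differ.

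A level is given throughout as log2 of the processed signal minus log2 of the array's 75th percentile over all non-control spots, so a spot at 0 is brighter than 75% of the spots on its array and each unit is a doubling. A probe counts as detected on an array when at least 0.5 of its spots carry the scanner software's mark for well above background. Levels of different probes are not compared as amounts of RNA, because each probe has its own brightness.

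The arrays differed before any strain was compared. SHR replicate 3 was scanned apart from the rest. The background measured around its spots had a median of 88, where the 8 remaining arrays had 43 to 45. Of all its non-control spots, 7.93% were marked as outliers, against 1.49% to 2.62% elsewhere. Of its MRAK spots, 4.10% were marked, against 2.07% to 2.83% elsewhere. Marked spots count in the 75th percentile used for scaling, and counts with the percentile over unmarked spots are given at the end. Dim probes read high there, and the lowest level of any detected probe was -2.99, where the remaining arrays had -7.51 to -5.92. For the 2018 MRAK probes with a mean level below -6 on the other SHR arrays, SHR replicate 3 lay 4.01 higher at the median. The excess was 0.93 for the 471 probes between -6 and -4, and 0.17 to 0.21 for brighter ones. Each result that involves SHR is therefore also given without this array. The scan times in the file headers form 3 sets: the Dahl S arrays with Dahl R replicate 1, the other Dahl R arrays with SHR replicates 1 and 2, and SHR replicate 3 alone. The tissue label fitted its markers: the 7 kidney markers with a value on every array, among them the tubule genes Umod, Slc34a1 and Aqp2, were detected on all 9 arrays, with a summed level of 9.38 to 9.47 in Dahl S, 9.40 to 9.76 in SHR and 9.35 to 9.44 in Dahl R. A summed level is the log2 of the markers' added signals, not a sum of log2 levels, so the brightest marker weighs most. Of 4 red cell markers, all were detected on all 9 arrays. The sums are over the 3 with a value on every array, Hbb, Alas2 and Ahsp. They were 8.08 to 8.39 in Dahl S, 7.91 to 8.13 in SHR and 7.905 to 8.008 in Dahl R. All 4 were higher on each Dahl S array than on any Dahl R array. Hbb had 7.94 to 8.27 against 7.83 to 7.90, and Alas2 4.43 to 4.64 against 3.20 to 3.97. Slc4a1 had 3.03 to 3.18 against 2.16 to 2.49, and Ahsp 1.82 to 2.15 against 0.43 to 1.25. Of 4 fat cell markers, 3 were detected on all arrays and Lep on none. The sums are over the 3 with a value on every array, Adipoq, Cidec and Lep. They were 3.54 to 4.29 in Dahl S, 4.11 to 4.61 in SHR and 4.24 to 4.49 in Dahl R. Ucp1, left out of the sums, had 2.17, 2.07 and 1.43 in Dahl S. It had 3.58 and 4.17 on SHR replicates 1 and 2, and 2.34 and 2.64 on Dahl R replicates 1 and 3. Of 5 leukocyte markers, 3 were detected on all arrays: Ptprc, Cd68 and Cd3e. The sums are over the 3 with a value on every array, Cd3e, Cd79b and Itgam, of which Cd3e was the brightest on each array. They were -0.96 to -0.33 in Dahl S, -2.30 to -0.28 in SHR and -0.47 to 0.0047 in Dahl R. Ptprc and Cd68 had no value on SHR replicate 3 and were left out, though brighter, at 1.73 to 2.57 on the remaining arrays. Of 5 adrenal markers, 1 was detected on all arrays and Cyp11b2 on none. The part of these cells in the strain differences was not tested. In whole tissue, fewer cells of a type and less RNA per cell cannot be told apart.

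Fewer MRAK probes than coding probes were detected on every array. In Dahl S kidneys 41.9%, 51.0% and 41.8% of the 3588 were well above background, in SHR kidneys 46.4%, 52.4% and 22.9%, and in Dahl R kidneys 55.2%, 47.9% and 48.2%. The ranges of the 3 strains overlapped, and the lowest value was that of SHR replicate 3. Coding probes were detected at 71.7% to 80.2% on the 8 other arrays and at 55.2% on SHR replicate 3. The MRAK share was lower than the coding share on 9 of 9 arrays, and MRAK minus coding averaged -28.6 ± 2.36 percentage points (SD, n = 9 arrays). Against all other probes not named NM_ or XM_, it was higher by 1.15 ± 0.82 points on average, with SHR replicate 3 as the only negative difference (-0.55 points).

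**Figure D1:**
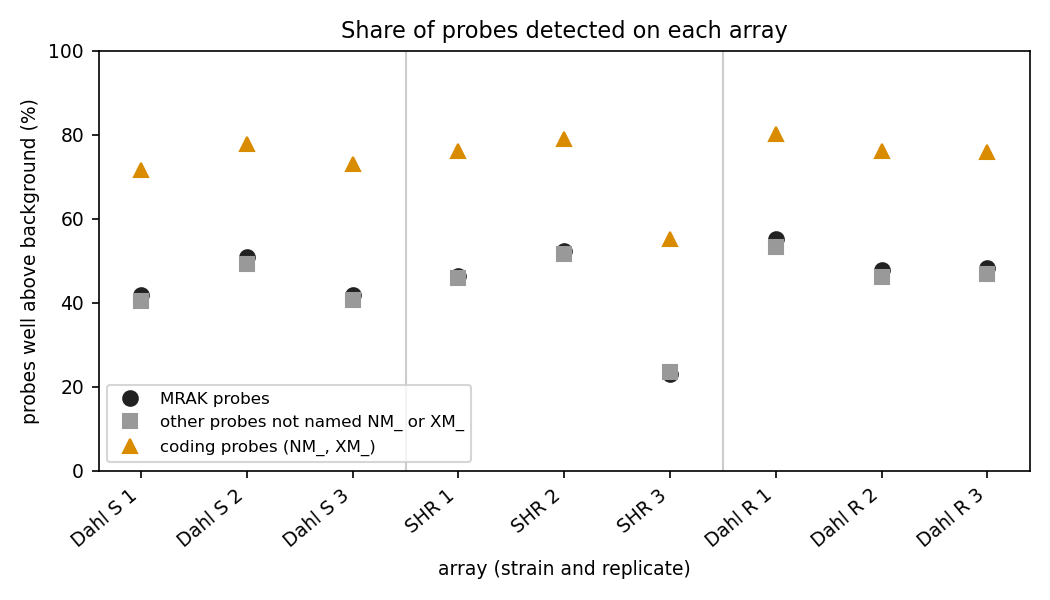
Percentage of probes well above background on each array, ordered by strain, for MRAK probes (circles), other probes not named NM_ or XM_ (squares) and coding probes (triangles). MRAK probes lie below coding probes on all 9 arrays, and SHR replicate 3 is the lowest array at 22.9% of MRAK probes.

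Among the name classes on the array, MRAK probes sat in the middle of the noncoding ones. On the 8 arrays other than SHR replicate 3, MRuc probes were detected at 39.3% to 54.0%, close to the MRAK range of 41.8% to 55.2%. The 134 probes with another name starting with MR were detected at 44.8% to 66.4%. The 2263 probes with remaining names, the largest of the other noncoding classes, were detected at 51.5% to 63.7%. Probes with RefSeq noncoding prefixes (XR_ or NR_) were detected at 38.5% to 51.2%, and those with names that start with uc at 17.4% to 29.9%. Detection was mostly all or nothing: 1513 MRAK probes (42.2%) were detected on none of the 9 arrays, 820 (22.9%) on all 9 and 593 (16.5%) on 8. Without SHR replicate 3, 1412 (39.4%) were detected on all 8 arrays, and this array was the one missing for most of the 593.

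The median level of all MRAK probes was -6.47, -6.36 and -6.62 in Dahl S, -6.82, -6.58 and -4.45 in SHR and -6.31, -6.45 and -6.56 in Dahl R. SHR replicate 3 had the highest median and the fewest detected probes. Coding probes had a median level of -1.37 to -1.28 on the other 8 arrays. The MRAK median lay below the coding median on 9 of 9 arrays, and MRAK minus coding averaged -4.86 ± 1.04 (SD, n = 9 arrays), or -5.20 without SHR replicate 3. It averaged -2.70 under normexp background correction and -3.27 over the tested probes alone, which were 51.0% of MRAK probes and 77.8% of coding probes. On most arrays the larger part of the MRAK probes was not detected, so their median lay near the limit of detection. Among detected probes, the median was -3.29 to -1.97 for MRAK and 0.25 to 0.85 for coding probes on the other 8 arrays. On SHR replicate 3 it was 0.30 and 1.22.

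**Figure D2:**
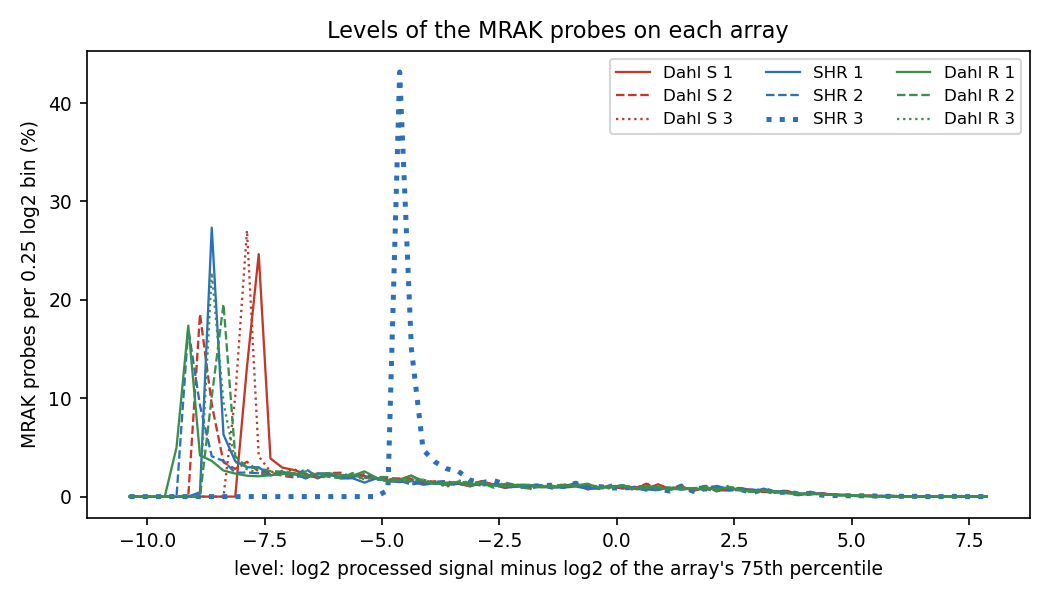
Distribution of MRAK levels on each array, as the percentage of MRAK probes per bin of 0.25 on the log2 scale, coloured by strain with a line style per replicate. The left peak holds the dim probes of each array, and that of SHR replicate 3 (thick dotted line) is shifted to the right, with a median of -4.45.

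A few MRAK probes were bright in every strain. The highest mean level over the 9 arrays belonged to MRAK009873, with 6.64, 6.63 and 6.66 in Dahl S, 6.92, 6.91 and 7.23 in SHR and 6.82, 6.54 and 6.72 in Dahl R. Its SHR values lay above all others, but no difference of Dahl S from SHR passed (limma adjusted p = 0.0786). MRAK079934 averaged 6.02 ± 0.05 in Dahl S, 6.04 ± 0.31 in SHR and 5.91 ± 0.05 in Dahl R (SD, n = 3 each). MRAK136867 averaged 5.72 ± 0.07 in Dahl S, 5.59 ± 0.18 in SHR on 2 usable arrays and 5.89 ± 0.05 in Dahl R. MRAK162466 averaged 5.72 ± 0.07, 5.74 ± 0.33 and 5.60 ± 0.18 in the same strains, and MRAK004787 5.42 ± 0.10, 5.81 ± 0.08 on 2 usable SHR arrays and 5.33 ± 0.03. None of these 5 passed the test in Dahl S against Dahl R. MRAK004787 was higher in SHR than in Dahl R (0.48 ± 0.10, limma adjusted p = 0.0289). It was lower in Dahl S than in SHR (-0.39 ± 0.10, limma adjusted p = 0.0495). At the other end of the tested probes, MRAK037857, MRAK032599, MRAK083069 and MRAK052728 were detected on 3 arrays each, with Dahl S means of -7.58 to -5.51 and Dahl R means of -7.27 to -6.74. The fifth of these dimmest tested probes, MRAK144779, is described with the strain-limited probes.

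The spread sets what the arrays can show. The 3 spots of a detected MRAK probe had a median SD of 0.101 to 0.131 on the log2 scale. Between animals, the median SD of the tested MRAK probes was 0.156 in Dahl S, 0.446 in SHR and 0.110 in Dahl R. Between SHR replicates 1 and 2 alone it was 0.150. The corresponding values of coding probes were 0.127 in Dahl S, 0.279 in SHR and 0.0966 in Dahl R.

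Strains were compared with limma over all 9 arrays, with p-values adjusted by Benjamini-Hochberg over all 16592 probes tested and a threshold of 0.05. A probe was tested if it was detected on at least 3 arrays and had a usable spot in each strain. This kept 1830 of the 3588 MRAK probes and left 1758 without a test. A probe that passed only because 1 strain is high had to differ, so the counts describe the tested probes and not all members. Differences are means of log2 levels ± the standard error (SE) of the fit. All members lie on the same arrays, so the 3 comparisons share their samples.

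Dahl S and Dahl R kidneys differed in few MRAK probes. In Dahl S, 5 of 1830 rose (0.273%, against 0.705% of all probes tested), 7 fell (0.383%, against 0.699%) and 1818 did not pass; 144 had an unadjusted p under 0.05. The median difference was -0.02 for MRAK probes and 0.02 for all tested probes. Coding probes passed at 1.60% and the other probes not named NM_ or XM_ at 1.06%, compared with 0.656% for MRAK probes. Without SHR replicate 3, whose spread is part of the fit for every pair of strains, 58 MRAK probes passed, 24 higher and 34 lower, or 3.17% against 4.59% of all probes. All 12 were among them. Leaving out 1 Dahl array at a time left 5 to 8 probes past the threshold.

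The largest rise was in MRAK038897. It had levels of -2.02, -1.64 and -1.65 in Dahl S, -2.05, -2.45 and -1.51 in SHR, and -7.51, -7.29 and -7.42 in Dahl R. It was detected on every Dahl S and SHR array and on no Dahl R array, so only a bound can be given. It entered the test only through the strains where it was high, so its p-values are not separate support for this pattern. Dahl S was at least 40.1-fold higher than Dahl R (5.64 ± 0.23, SE, limma adjusted p = 6.06e-05), and SHR at least 34.2-fold higher than Dahl R (5.41 ± 0.23, limma adjusted p = 1.12e-05). For such a bound, each array of the dimmer strain was given the probe's own level or the lowest level of any detected probe, whichever was higher. The brighter strain kept its measured mean, so bounds are given only where all its usable arrays detected the probe.

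MRAK052755 was also lowest in Dahl R, at a level where all 9 arrays detected it. It had 1.22, 1.33 and 1.38 in Dahl S, 1.21, 1.22 and 1.99 in SHR and -1.25, -1.57 and -1.77 in Dahl R. Dahl R stood apart from both other strains, with no overlap. Dahl S was 7.18-fold higher than Dahl R (2.84 ± 0.23, limma adjusted p = 0.00123), and SHR 8.04-fold higher than Dahl R (3.01 ± 0.23, adjusted p = 0.000218).

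The other 3 that rose were bright and changed less. MRAK167711 had 4.50, 4.39 and 4.32 in Dahl S, against 3.39, 3.06 and 3.54 in Dahl R, and was 2.11-fold higher (1.08 ± 0.16, limma adjusted p = 0.0209). Here Dahl S was the strain that stood apart, since SHR had 3.62, 3.18 and 3.40. MRAK028441 was 1.94-fold higher (0.95 ± 0.14, limma adjusted p = 0.0175) and MRAK083095 1.84-fold higher (0.88 ± 0.16, limma adjusted p = 0.0481), and in both the Dahl S and Dahl R values did not overlap. MRAK083095 averaged 0.39 ± 0.20 in Dahl S, 0.46 ± 0.23 in SHR and -0.49 ± 0.16 in Dahl R (SD, n = 3 each), so Dahl R alone was low.

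Of the 7 that fell, MRAK161905 changed most. Its levels were -3.26, -3.43 and -3.46 in Dahl S, -0.89, -1.30 and -0.64 in SHR, and -0.23, -0.35 and -0.04 in Dahl R. The 3 strains did not overlap, and Dahl S was 9.07-fold lower than Dahl R (-3.18 ± 0.18, limma adjusted p = 0.000154). MRAK044962 had -5.06, -4.92 and -5.06 in Dahl S, -2.06, -1.88 and -2.36 in SHR and -2.05, -2.06 and -2.13 in Dahl R. Dahl S alone was low, 7.64-fold below Dahl R (-2.93 ± 0.13, limma adjusted p = 6.08e-05) and 7.52-fold below SHR (-2.91 ± 0.13, adjusted p = 1.46e-05).

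MRAK165063 and MRAK043754 were also low in Dahl S only, and each was detected on 1 of 3 Dahl S arrays, 2 of 3 SHR arrays and all Dahl R arrays. MRAK165063 had -6.16, -5.92 and -6.17 in Dahl S, -3.29, -3.19 and -3.15 in SHR and -3.44, -3.34 and -3.45 in Dahl R. The difference was -2.67 ± 0.10 against Dahl R (limma adjusted p = 4.02e-05) and -2.87 ± 0.10 against SHR (adjusted p = 4.84e-06). MRAK043754 averaged -6.23 ± 0.11 in Dahl S, -3.45 ± 0.64 in SHR and -3.91 ± 0.26 in Dahl R (SD, n = 3 each), a difference of -2.32 ± 0.30 from Dahl R (limma adjusted p = 0.0124). MRAK054178 (2.93-fold lower), MRAK016990 (1.78-fold) and MRAK080602 (1.75-fold) fell less, with limma adjusted p from 0.0186 to 0.0381. Normexp background correction was run on the median spot and background signals, not on the processed signal, with an offset of 50. Under it, MRAK043754, MRAK054178, MRAK016990 and MRAK080602 turned to differences of 0.11 to 0.43 in the other direction. Their limma adjusted p was 0.663 to 0.925, and why they turned was not tested. The other 3 that fell lost their calls there too: the difference was -0.09 for MRAK165063, -1.05 for MRAK044962 and -2.18 for MRAK161905 (adjusted p from 0.10 to 0.959). Of all 12, only MRAK038897 and MRAK052755 passed under normexp. With the percentile over unmarked spots, 8 of the 12 lost their calls, MRAK052755 among them (2.83, limma adjusted p = 0.0878). MRAK016990 and MRAK054178 also lost their calls under quantile normalization and with the authors' processed values (adjusted p from 0.662 to 0.954).

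**Figure D3:**
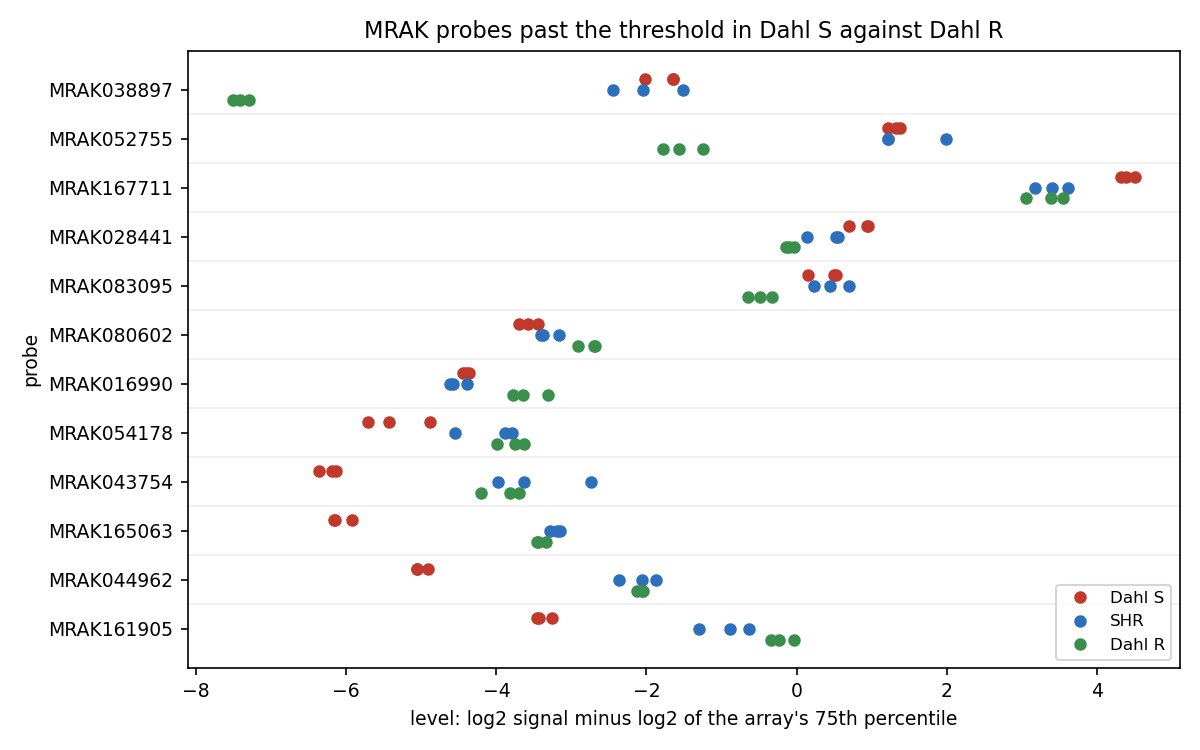
Levels of the 12 MRAK probes past the threshold in Dahl S against Dahl R, 1 point per array, for Dahl S (red), SHR (blue) and Dahl R (green). Dahl R alone is low for MRAK038897, MRAK052755 and MRAK083095, and Dahl S alone is low for MRAK044962, MRAK165063, MRAK043754 and MRAK054178.

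Scan set and strain overlap in this comparison, because only Dahl R replicate 1 was scanned with the Dahl S arrays. With the scan set as a term, 14 MRAK probes passed (0.765%, against 0.988% of all probes), including 8 of the 12. The 4 that lost their calls kept their direction: MRAK167711 (1.02), MRAK083095 (0.72), MRAK054178 (-1.71) and MRAK080602 (-0.67). Within that scan set 7 passed (0.383%, against 0.197% of all probes). All 12 had the same direction there and 6 of them passed, but there 1 Dahl R array is assumed to vary like the Dahl S arrays, and these arrays also made the calls. The 6 were MRAK038897, MRAK052755, MRAK161905, MRAK044962, MRAK165063 and MRAK043754, with limma adjusted p from 0.0237 to 0.0419.

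Dahl S and SHR differed in more MRAK probes. Relative to SHR, 135 of 1830 were higher in Dahl S (7.38%, against 7.08% of all probes tested), 175 were lower (9.56%, against 8.62%) and 1520 did not pass; 139 of the 310 differed at least 2-fold. The median difference was -0.19 for MRAK probes and -0.09 for all tested probes. Without SHR replicate 3, 565 MRAK probes passed (30.9%, against 26.2% of all probes), and the split turned to 304 higher and 261 lower, with a median of -0.05. Of the 310, 299 passed again in the same direction. The split also turned under quantile normalization (171 higher and 149 lower), with the authors' processed values (155 and 129) and under normexp (32 and 14). It did not turn for probes detected on all 9 arrays (64 higher and 122 lower), with the percentile over unmarked spots (22 and 40), with outlier spots kept (128 and 155) or without SHR replicate 1 (117 and 270). The balance of directions thus depended on the setting. No scan set held both strains. With the scan set as a term, which joins them through the Dahl R arrays, 110 passed (6.01%, against 5.22% of all probes), 77 higher and 33 lower, and 70 of the 310 were among them.

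A pair of probes was detected on all 6 Dahl arrays and on no SHR array, and passed the test in this comparison. Both entered the test only through the Dahl arrays, so their p-values are not separate support for this pattern.
MRAK134201 had -1.59, -0.45 and -0.38 in Dahl S, -8.56, -8.40 and -4.63 in SHR, and -0.46, -1.40 and -0.56 in Dahl R. The SHR value of -4.63 is that of SHR replicate 3, where the probe was not well above background. Dahl S was at least 32.4-fold higher than SHR (limma adjusted p = 0.00535). MRAK050663 had -2.12, -2.16 and -2.18 in Dahl S, -8.65, -9.02 and -4.57 in SHR and -2.22, -2.09 and -2.14 in Dahl R. The Dahl lines coincided, and Dahl S was at least 12.7-fold higher than SHR (limma adjusted p = 0.0134). Without SHR replicate 3 the adjusted p of the 2 probes was 6.59e-05 and 3.31e-07. MRAK050663 did not pass under normexp (2.65, limma adjusted p = 0.0707) or with the percentile over unmarked spots (4.90, limma adjusted p = 0.0846). It also missed the threshold in a fit of only the 2 strains (5.26, limma adjusted p = 0.0634).

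The next largest differences toward Dahl S were graded rather than complete. MRAK018017 had -2.45, -2.59 and -2.57 in Dahl S, -6.83, -6.68 and -4.69 in SHR and -2.70, -2.83 and -2.96 in Dahl R, with 2 of 3 SHR arrays detected (3.53 ± 0.51 in Dahl S against SHR, limma adjusted p = 0.00372). MRAK014072, detected on all 9 arrays, had 2.42, 1.68 and 1.77 in Dahl S, -0.80, -1.56 and -0.60 in SHR and 1.57, 1.57 and 1.25 in Dahl R. SHR was the low strain in both. Dahl S was 7.68-fold higher than SHR for MRAK014072 (2.94 ± 0.29, limma adjusted p = 0.00062), and MRAK143002, also detected on all arrays, was 6.17-fold higher (2.63 ± 0.31, limma adjusted p = 0.00159). MRAK051552 and MRAK149123, each detected on 1 of 3 SHR arrays, were higher in Dahl S by 3.50 ± 0.51 and 3.50 ± 0.94. MRAK158309, MRAK138585 and MRAK035782, each detected on 2 of 3 SHR arrays, were higher by 2.63 to 2.86. Over these 5 the limma adjusted p was 0.000787 to 0.0439, the highest that of MRAK149123. With the scan set as a term MRAK149123 (adjusted p = 0.374) and MRAK035782 (0.0541) lost their calls.

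Lower in Dahl S than in SHR was first MRAK013532, with -7.57, -7.26 and -7.04 in Dahl S, -3.06, -2.82 and -4.20 in SHR and -6.61, -7.22 and -6.73 in Dahl R. It was detected on no Dahl S array, on SHR replicates 1 and 2 and on 1 Dahl R array. SHR was at least 8.43-fold higher than Dahl S (Dahl S minus SHR -3.93 ± 0.36, limma adjusted p = 0.00044). MRAK031289 had -4.58, -4.49 and -4.84 in Dahl S, -1.99, -1.68 and -1.65 in SHR and -4.15, -4.90 and -4.37 in Dahl R, all detected. Only SHR was high, and Dahl S was 7.25-fold lower than it (-2.86 ± 0.21, limma adjusted p = 0.00015). Under normexp the difference of MRAK031289 was -1.20 and did not pass (limma adjusted p = 0.294). MRAK013747 was also highest in SHR, with -1.72, -1.61 and -1.61 in Dahl S, 0.72, 0.47 and 0.93 in SHR and -1.76, -2.15 and -2.44 in Dahl R (5.10-fold lower in Dahl S than in SHR, -2.35 ± 0.19, limma adjusted p = 0.000227).

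MRAK046445 was 6.16-fold and MRAK014155 4.98-fold lower in Dahl S than in SHR, with limma adjusted p of 0.00139 and 0.0112. For MRAK014155, SHR replicate 3 stood at 3.72, against 2.03 and 1.92 on the other SHR arrays, and the difference was -2.32 with it and -1.74 without it (adjusted p = 0.000121). MRAK033466 was detected on no Dahl S array and on 2 arrays each of SHR and Dahl R, with SHR replicate 3 not among them, so no bound is given. It too needed its SHR arrays to reach the test, so its p-values are not separate support. The probe was lower in Dahl S than in SHR (-2.32 ± 0.27, limma adjusted p = 0.00141), but it turned to 0.25 under normexp. It lost its call under quantile normalization (-1.20, adjusted p = 0.347), with the authors' processed values (-0.64, adjusted p = 0.685) and with the scan set as a term (adjusted p = 0.0546), and MRAK046445 did so with the scan set (adjusted p = 0.0828). Another 4 probes, MRAK161905, MRAK044962, MRAK165063 and MRAK043754, complete the 10 largest, and these were also low in Dahl S against Dahl R. Of the 20 probes named in this comparison, 12 did not pass in the same direction under normexp. With the percentile over unmarked spots, 8 of the 20 did not pass.

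SHR and Dahl R were the only strains with more than 1 array each in a shared scan set. Relative to Dahl R, 121 of 1830 MRAK probes were higher in SHR (6.61%, against 7.56% of all probes tested), 100 were lower (5.46%, against 5.49%) and 1609 did not pass; 91 of the 221 differed at least 2-fold. The median difference was 0.15 for MRAK probes and 0.11 for all tested probes. Without SHR replicate 3, 471 passed (25.7%, against 22.7% of all probes), 201 higher and 270 lower, with a median of -0.01, and 217 of the 221 were among them. Within the shared scan set of 2 SHR and 2 Dahl R arrays, 273 passed (15.0%, against 12.6% of all probes), 98 higher and 175 lower. These included 133 of the 221, and all 221 had the same direction. The arrays of this set also made the calls, so the shared direction is not separate support. With the scan set as a term 339 passed (18.5%, against 15.8% of all probes), 131 higher and 208 lower. More probes were lower than higher in SHR also under quantile normalization (99 higher and 135 lower), with the authors' processed values (84 and 114) and under normexp (10 and 20). More were higher for probes detected on all 9 arrays (110 higher and 45 lower), with the percentile over unmarked spots (27 and 13), with outlier spots kept (106 and 92) and without SHR replicate 1 (147 and 86).

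**Figure D4:**
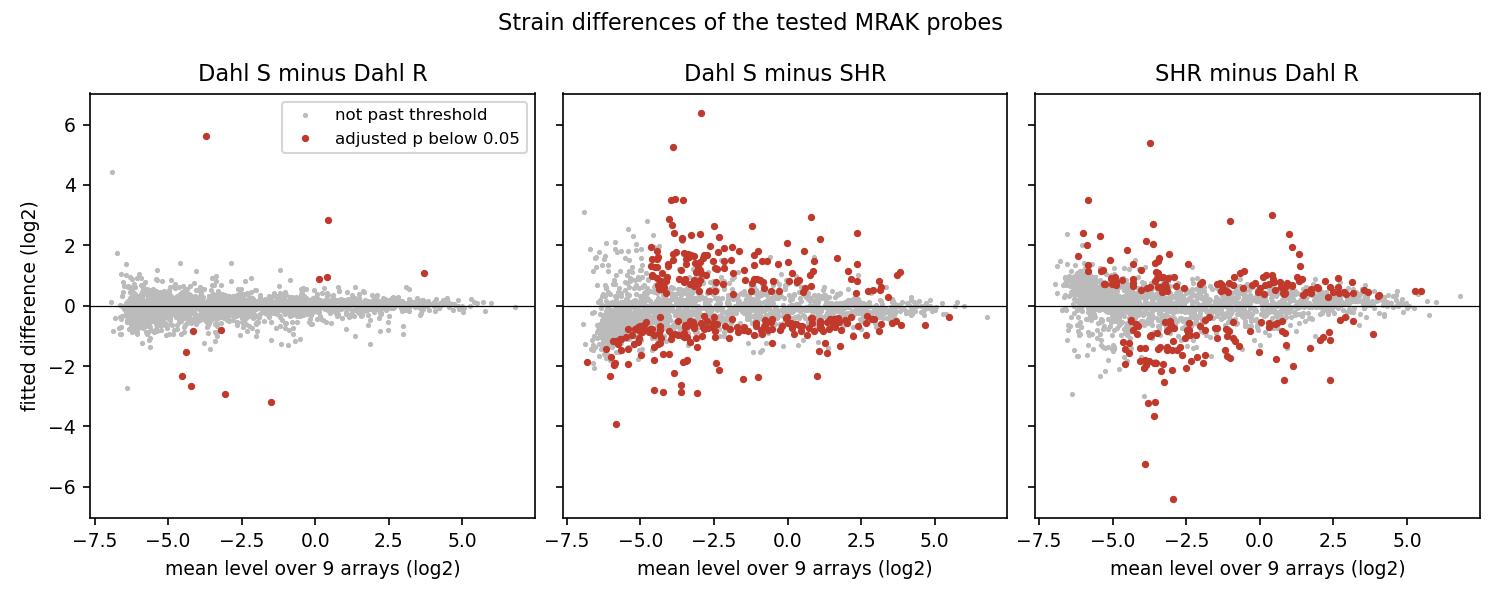
Fitted log2 difference of each of the 1830 tested MRAK probes against its mean level over the 9 arrays, for the 3 pairs of strains. Red points passed the threshold: 12 for Dahl S minus Dahl R, 310 for Dahl S minus SHR and 221 for SHR minus Dahl R.

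The probes higher in SHR than in Dahl R included some that were low in Dahl R alone and some that were high in SHR alone. The first were MRAK038897, MRAK052755 and MRAK083095 (0.95 ± 0.16 for the last, limma adjusted p = 0.00868). MRAK013532 was higher by 3.49 ± 0.36 (limma adjusted p = 0.000888), MRAK013747 7.05-fold (2.82 ± 0.19, limma adjusted p = 0.00011) and MRAK031289 6.47-fold (2.69 ± 0.21, limma adjusted p = 0.000219). Within the shared scan set the adjusted p of these 3 was 0.00664 to 0.0144, but the arrays of this set also made the calls. The limit given above on the p-values of MRAK013532 holds here too. Under normexp MRAK013532 (2.10, limma adjusted p = 0.183) and MRAK031289 (2.13, limma adjusted p = 0.0918) did not pass. MRAK033466 was higher by 2.41 ± 0.27, MRAK014155 by 2.38 ± 0.43, MRAK017168 by 2.30 ± 0.40, MRAK150340 by 2.14 ± 0.52 and MRAK046445 by 2.03 ± 0.31, with limma adjusted p from 0.00142 to 0.0347. MRAK017168 was detected on 2 of 3 SHR arrays and 1 of 3 Dahl R arrays. MRAK033466 and MRAK017168 lost their calls under quantile normalization (1.35 and 1.18, adjusted p = 0.321 and 0.468) and with the authors' processed values (1.22 and 1.03, adjusted p = 0.480 and 0.586), and MRAK150340 with the scan set as a term (adjusted p = 0.0890).

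Lower in SHR than in Dahl R were MRAK134201 (at least 32.4-fold, limma adjusted p = 0.00609) and MRAK050663 (at least 12.8-fold, limma adjusted p = 0.0155), at the levels given for Dahl S. MRAK082341 had -6.16, -5.81 and -4.62 in SHR, against -1.80, -1.82 and -2.04 in Dahl R, and lay between them in Dahl S at -3.87, -2.75 and -3.35. It was 12.5-fold lower in SHR than in Dahl R, with 2 of 3 SHR arrays detected (-3.64 ± 0.42, limma adjusted p = 0.00152, and 0.00493 within the shared scan set). MRAK154943 was bright in every strain, with 1.05, 0.27 and 0.92 in SHR against 3.12, 3.29 and 3.19 in Dahl R and 3.50, 3.04 and 2.98 in Dahl S. No SHR value reached either Dahl line, and the fold was 5.47 (-2.45 ± 0.23, limma adjusted p = 0.000546). MRAK018017, MRAK051552, MRAK052893, MRAK014072, MRAK050566 and MRAK083695 were also lower, with differences of -3.24 to -2.14, with limma adjusted p from 0.000194 to 0.00722. MRAK050566 and MRAK083695 missed the threshold under quantile normalization and with the authors' processed values (adjusted p from 0.0564 to 0.0783), and MRAK083695 within the shared scan set (0.0617). MRAK161905 (SHR minus Dahl R -0.74 ± 0.18 with all arrays, limma adjusted p = 0.0332) also missed it there (0.0709). Under normexp 13 of the 21 probes named in this comparison did not pass. With the percentile over unmarked spots, 8 of the 21 did not, MRAK050663 among them (-4.91, limma adjusted p = 0.0944).

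Over the 3 strains together, a moderated F test in the same fit found a strain difference in 275 of 1830 MRAK probes, or 15.0%, against 14.9% of all probes tested. Without SHR replicate 3 it found 557 (30.4%, against 27.5% of all probes). The share of MRAK probes with a strain difference was thus close to that of the whole array by this test. Ordered by the number in the name and cut into 4 equal groups of 897, the probes passed the F test at 16.6%, 15.3%, 13.3% and 14.7% of those tested. The first group, MRAK002255 to MRAK034001, had the highest share of tested probes at 56.3%, and the second, MRAK034020 to MRAK050984, the lowest at 46.7%.

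Detection itself was limited to some strains for a small set. There were 26 MRAK probes detected on every usable array of 1 or 2 strains and on no array of the rest, or 0.725% of the 3588 members, against 0.316% of all 24684 probes. Of these, 23 were detected in both Dahl lines and on no SHR array (0.641%, against 0.251% of all probes). No MRAK probe was detected in SHR alone, where the share over all probes was 0.0162%. SHR replicate 3 detected the fewest probes of any array. Leaving an array out can only add to such a set, and without SHR replicate 3 there were 36 MRAK probes (1.00%, against 0.673% of all probes). Then 2 were detected in SHR alone (0.0557%, against 0.199%) and 8 in SHR and Dahl R but not Dahl S (0.223%, against 0.166%). These probes were chosen for which arrays detected them, so their levels are described here without a test, and folds are bounds. MRAK038897, MRAK134201 and MRAK050663 are among them, and the p-values given above for these probes carry the same limit.

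The probe detected in Dahl S alone was MRAK144779, with -4.42, -4.40 and -4.37 in Dahl S, -8.71, -9.12 and -4.67 in SHR and -9.26, -8.54 and -8.63 in Dahl R. The Dahl S values were nearly equal and all above the rest. Dahl S was at least 2.69-fold higher than SHR and at least 6.50-fold higher than Dahl R. The probe detected in Dahl R alone was MRAK049651, with -7.36, -6.99 and -7.34 in Dahl S, -8.57, -9.03 and -4.64 in SHR and -4.65, -4.22 and -4.62 in Dahl R. Dahl S was at least 3.64-fold lower than Dahl R, and the value of SHR replicate 3 overlapped the Dahl R values.

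Beyond MRAK134201 and MRAK050663, the probes detected in both Dahl lines but not SHR were dim. MRAK003821 had -5.05, -4.35 and -4.10 in Dahl S, -8.12, -8.33 and -4.69 in SHR and -4.50, -4.72 and -4.91 in Dahl R. SHR replicate 3 lay among the Dahl values, and the other SHR arrays below them. For MRAK003821, MRAK080917, MRAK013239, MRAK035730 and MRAK160944, the bound on the fold of Dahl S over SHR lay between 1.73 and 4.62. In the last 4 as well, SHR replicates 1 and 2 lay below every Dahl value of the same probe.

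**Figure D5:**
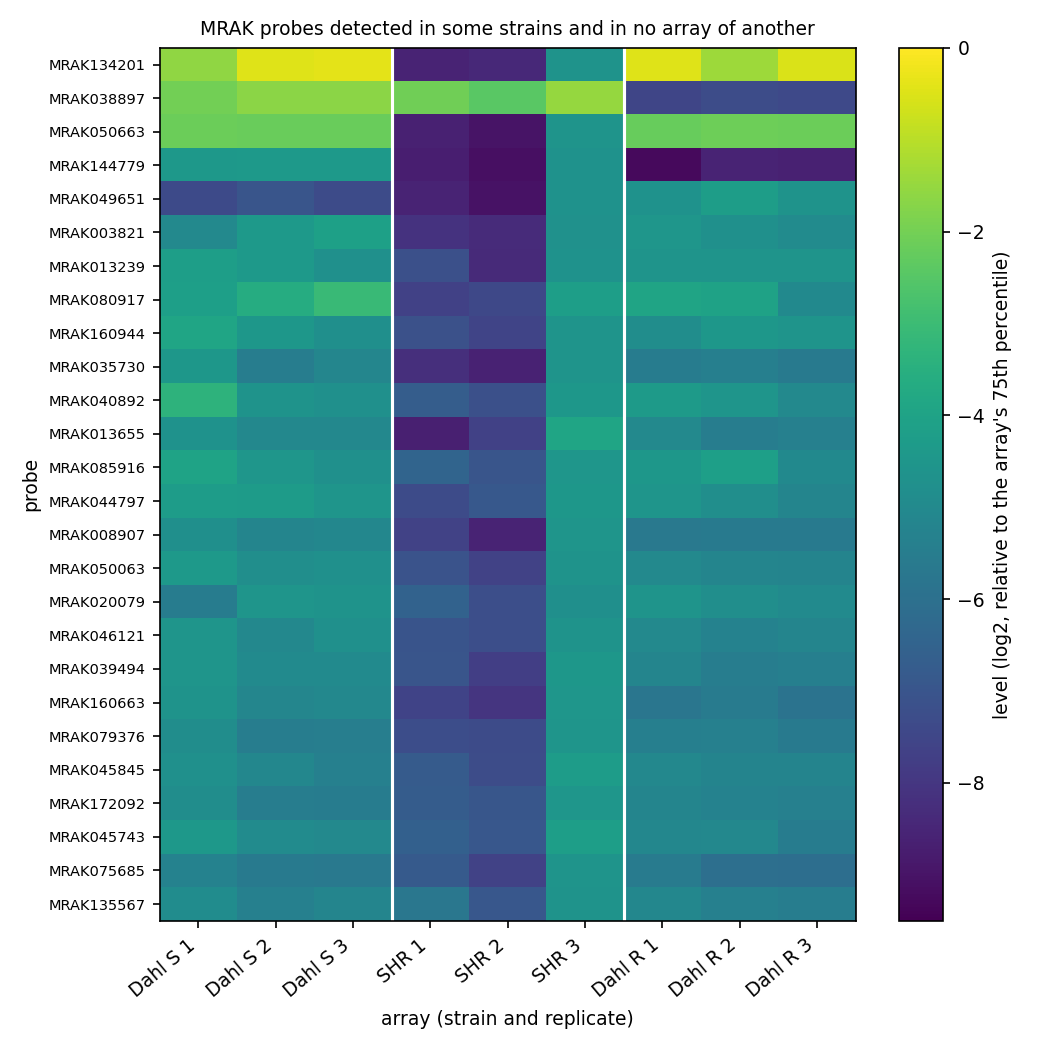
Levels of the 26 MRAK probes detected on every usable array of 1 or 2 strains and on no array of another, 1 row per probe and 1 column per array, with Dahl S left, SHR in the middle and Dahl R right. In the 23 rows detected in both Dahl lines and not in SHR, SHR replicates 1 and 2 are mostly the darker columns, and SHR replicate 3 is brighter.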

How the data were processed

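Per the file headers, the authors deposited 1 scanner file an array, from Agilent Feature Extraction 10.5.1.1. The processed signal is an intensity, background-subtracted and not normalized between arrays. They also deposited processed values of 19407 probes, read as log2, with normalization and filter not stated; these hold 2600 MRAK probes and served as an alternative.

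Each array had 42136 non-control spots and no saturated one (0 spots). Log2 signals were scaled to each array's 75th percentile, outlier-marked spots dropped, and each probe's remaining spots averaged. Strain was the only term in limma 3.58.1 (lmFit, eBayes) in R 4.3.3, tested on simulated data. Of the tested MRAK probes, 58 lacked a usable spot on at least 1 array.

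Members, lists and tests were chosen with earlier results of these data known. Named are, per comparison and direction, the 10 largest differences past the threshold, the 5 brightest and 5 dimmest tested probes, strain-limited probes by gap, and probes named earlier. No p is given for a measure summed over members. The number of arrays limits the precision. Same-numbered replicates share only a number: their deviations correlated at -0.160 to 0.0611.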

Additional observations from a re-analysis of the deposited data

How the results depend on the processing

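Counts of MRAK probes past the threshold are given for Dahl S against Dahl R first, then for Dahl S against SHR, for SHR against Dahl R and for any difference; with all 9 arrays they were 12, 310, 221 and 275. They were 2, 46, 30 and 35 under normexp; 4, 62, 40 and 47 with the percentile over unmarked spots; 6, 178, 127 and 132 with no filter on dim probes; and 9, 186, 155 and 172 for probes detected on all 9 arrays. The replicate block gave 6, 224, 139 and 165. The scan set gave 14, 110, 339 and 228 as a term and 12, 146, 330 and 247 as a random block, and within single sets 7 for Dahl S against Dahl R and 273 for SHR against Dahl R. Fits of only the 2 strains compared gave 66, 112 and 123. Leaving out 1 array gave 5 to 58, 149 to 565, 96 to 471 and 144 to 557, the highest each time without SHR replicate 3. The first count was 8, 5 and 5 without Dahl S replicates 1 to 3 and 6, 5 and 6 without Dahl R replicates 1 to 3; the second was 149 and 181 without Dahl S replicates 2 and 3; the third was 111, 96 and 116 without Dahl R replicates 1 to 3. Without SHR replicate 3 and with detection on all 8 remaining arrays, an alternative chosen after seeing the data, the counts were 61, 484, 413 and 495. Quantile normalization, the authors' values and kept outlier spots gave counts within 1.5 times, but not always of the same probes. Of the 310 in Dahl S against SHR, 232, 202 and 282 passed again in the same direction under these 3 settings. Of the 221 in SHR against Dahl R, 167, 138 and 194 did, and of the 12 in Dahl S against Dahl R, 10, 9 and 11. Of 1090 alternative values of 53 named differences, 906 kept direction and call, 179 lost the call and 5 turned, all under normexp: MRAK016990 (0.43), MRAK043754 (0.21), MRAK054178 (0.34) and MRAK080602 (0.11) in Dahl S against Dahl R, and MRAK033466 (0.25) in Dahl S against SHR. Over tested probes only, the median MRAK level minus that of other noncoding probes was -0.23, against 0.18 over all. The share of MRAK probes detected was 4.33 points higher in Dahl S than in SHR, and leaving out 1 array gave -4.49 (without SHR replicate 3) to 10.3. The causes were not tested. The excess of SHR replicate 3 over the other SHR arrays was largest for the dimmest MRAK probes (4.01 at the median below a level of -6).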
